A study of Mus musculus with 4 samples.

Results

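The genes described here encode the main axon guidance ligands and their receptors, as expressed by the lining epithelium of the mouse tongue. They were chosen by symbol alone: semaphorins of classes 3 to 7, plexins, neuropilins, Slits, Robos, netrins, Dcc and Neo1, Unc5 proteins, ephrins and Eph receptors. The symbols picked out 73 of 24453 genes. Of these, 70 fall into 13 families, with 35 genes in 6 ligand families and 35 in 7 receptor families. The other 3, Unc50, Unc5cl and Plxna4os1, only share the letters of a family name: Unc50 encodes a Golgi protein, Unc5cl a relative of the Unc5 receptors that is not listed with them here, and Plxna4os1 a transcript named for lying opposite a plexin gene. RNA was sequenced from 4 libraries of epithelial cells, sorted for the surface protein EpCAM from tongues of day 16 embryos after the part with the circumvallate papillae had been cut off. In the 2 libraries labelled Ring1a/b 2KO the genotype was Ring1a-/- Ring1bfl/fl K14-Cre+. The null alleles remove Ring1 (Ring1a) from all cells of the embryo, whereas floxed Rnf2 (Ring1b) is recombined only where Krt14 regulatory sequence drives Cre, mainly in basal cells of stratified epithelium. The other 2 libraries are labelled control, and the labels do not spell out their alleles or say whether embryos were pooled. Ring1a and Ring1b are the E3 ubiquitin ligases of Polycomb repressive complex 1, a silencer of developmental genes, whose role in this epithelium the series addresses.

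Axon guidance genes work as matched sets of signals and receptors. Semaphorins bind plexins, and most of class 3 also needs a neuropilin as co-receptor. Slits bind Robos, netrins attract through Dcc or Neo1 and repel through Unc5 receptors, and ephrins on one cell bind Eph receptor tyrosine kinases on the next. The same molecules steer growing axons, sort cells at tissue borders and shape blood vessels. In the tongue, guidance cues made by the epithelium, Sema3a among them, are known to act on the gustatory and trigeminal axons that grow towards the papillae. The sorted cells are the side that axons meet; cell bodies of those neurons lie outside the tongue.

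The libraries held 16256569 to 20624055 counts. Replicates of a group were further apart than counting alone would place them (chi-square over its degrees of freedom 28.7 in control and 22.7 in the 2KO-labelled group). The labels do not tie replicates to different embryos, so the p-values rest on a spread between libraries that may be technical. The targeted genes were not lower in the libraries labelled 2KO: Ring1 stood at 9.01 and 8.56 CPM (read counts scaled to library size) in control and at 16.8 and 15.0 in the 2KO-labelled libraries, and Rnf2 at 33.9 and 51.2 against 62.8 and 62.4. A deletion of some exons can leave the count of a whole gene high, so the genotype is unchecked and every direction below is that of the labelled groups. The ribosomal precursor Rn45s took 15.3% to 16.7% of counts in control and 20.2% to 22.9% in the 2KO-labelled libraries. Its part in the results was not tested beyond a fit that left it out together with Malat1 and Lars2. Epcam stood at 189 to 221 CPM in control and 216 to 245 in the 2KO-labelled libraries and was not called. The basal keratins Krt5 and Krt14, abundant in all 4, were called lower (log2 fold changes -0.45 and -0.72). The other epithelial markers, Krt15, Cdh1 and Trp63, were not called (log2 fold changes -0.38, -0.19 and 0.001).

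Of 66 members with enough reads to be tested, 13 rose, 6 fell and 47 did not pass. Passing means an adjusted p under 0.05 in edgeR's quasi-likelihood test, adjusted by the Benjamini-Hochberg method across 15336 tested genes. The members called came to 28.8% of those tested, beside 11.9% of all genes, with 7.0% of all genes called higher and 4.92% called lower. The 13 that rose were the semaphorins Sema4f, Sema4g, Sema5a and Sema6a, the receptors Plxnd1, Nrp1, Nrp2, Robo1, Dcc, Unc5b and Ephb2, and the ligands Ntn3 and Efnb3. The 6 that fell were Sema3c, Slit1, Plxna2, Robo2, Epha1 and Ephb6. With a term for GC content and transcript length 12 were called higher and 12 lower, and on the FPKM values, with a pseudocount of 1, 7 higher and 1 lower. By at least 2-fold, 12 rose and 2 fell, together 14 of 66, where 7.36% of all genes tested were called at that size. The median log2 fold change of the 66 was 0.35, beside 0.0065 over all genes tested. Sema4f, Dcc, Robo4, Unc5d and Epha10 had enough reads to be tested only through the 2KO-labelled libraries. Their positive changes are no support for the counts of higher members in this paragraph or for the median. Both 2KO-labelled libraries lay on one side of both controls for 42 members (63.6%), 29 above and 13 below, beside 57.7% of all genes (29.0% above and 28.7% below). In bulk RNA, fewer cells of a type and less RNA per cell cannot be told apart.

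The promoters of the 3 members that rose and the 2 that fell with the smallest adjusted p are printed here because Polycomb complexes are known to bind CpG-rich promoters. Each is 250 bases before to 50 after the gene's start (RefSeq, GRCm38.p6, the assembly called mm10), 5′ to 3′ on the gene's strand, with every CG dinucleotide in capitals. Ephb2 (chr4:136835963-136836262, minus strand), Sema4g (chr19:44989094-44989393, plus) and Sema5a (chr15:32244563-32244862, plus) rose. Sema3c (chr5:17574566-17574865, plus) and Robo2 (chr16:74411776-74412075, minus, the window with most CG of 3 listed) fell.
Ephb2: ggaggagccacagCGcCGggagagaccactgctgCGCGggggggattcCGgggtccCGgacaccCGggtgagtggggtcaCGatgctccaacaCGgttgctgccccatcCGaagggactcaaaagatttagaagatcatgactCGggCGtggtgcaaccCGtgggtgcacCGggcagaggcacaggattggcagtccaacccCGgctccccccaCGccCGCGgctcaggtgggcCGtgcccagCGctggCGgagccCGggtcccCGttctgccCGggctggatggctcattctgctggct
Sema4g: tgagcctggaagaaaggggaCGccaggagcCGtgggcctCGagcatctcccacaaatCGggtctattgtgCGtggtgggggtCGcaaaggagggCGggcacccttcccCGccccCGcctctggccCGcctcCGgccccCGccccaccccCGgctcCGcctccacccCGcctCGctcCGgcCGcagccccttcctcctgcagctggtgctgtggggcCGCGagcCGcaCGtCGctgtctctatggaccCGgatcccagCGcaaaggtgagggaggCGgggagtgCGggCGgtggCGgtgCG
Sema5a: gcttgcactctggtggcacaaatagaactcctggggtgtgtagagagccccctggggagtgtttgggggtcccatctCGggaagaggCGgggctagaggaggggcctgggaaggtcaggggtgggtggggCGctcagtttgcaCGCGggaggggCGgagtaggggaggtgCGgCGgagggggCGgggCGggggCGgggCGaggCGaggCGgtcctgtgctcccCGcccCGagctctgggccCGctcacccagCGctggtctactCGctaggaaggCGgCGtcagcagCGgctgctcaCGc
Sema3c: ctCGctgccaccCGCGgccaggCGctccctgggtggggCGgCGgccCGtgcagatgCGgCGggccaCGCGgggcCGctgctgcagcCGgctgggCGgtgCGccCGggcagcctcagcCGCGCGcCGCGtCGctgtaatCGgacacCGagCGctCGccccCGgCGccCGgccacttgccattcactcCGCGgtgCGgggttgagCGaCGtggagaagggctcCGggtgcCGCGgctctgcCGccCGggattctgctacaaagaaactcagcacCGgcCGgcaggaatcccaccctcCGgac
Robo2: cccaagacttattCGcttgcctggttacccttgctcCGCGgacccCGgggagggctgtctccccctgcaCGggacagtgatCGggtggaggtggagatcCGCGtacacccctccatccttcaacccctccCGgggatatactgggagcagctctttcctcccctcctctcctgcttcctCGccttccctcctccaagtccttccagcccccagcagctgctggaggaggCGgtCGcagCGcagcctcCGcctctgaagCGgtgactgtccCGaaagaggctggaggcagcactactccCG
These windows held 24, 30 and 23 CG dinucleotides in the genes that rose and 42 and 17 in those that fell. A window was found for 62 of the 73 members, and where a gene had several the one with most CG was used. The 10 windows of members called higher held a median of 23 CG, the 5 of members called lower 25, and the 41 of members tested and not called 23, beside 21 over 11644 genes tested with a window. A ratio of observed to expected CG of at least 0.6 was reached by 7 of 10, 3 of 5 and 28 of 41 of these windows, and by 70.9% of the windows of all genes tested. The 6 windows of members with too few reads to test held a median of 12 CG. The letters TATAAA, searched on both strands, occurred in 2 of the 62 windows, those of Efnb2 and Slit2, against 12.4% of windows over all genes of the files and 6.84% over the genes tested. Members that rose, fell or were not called thus had like median CG counts; no test was run on them.

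**Figure D1:**
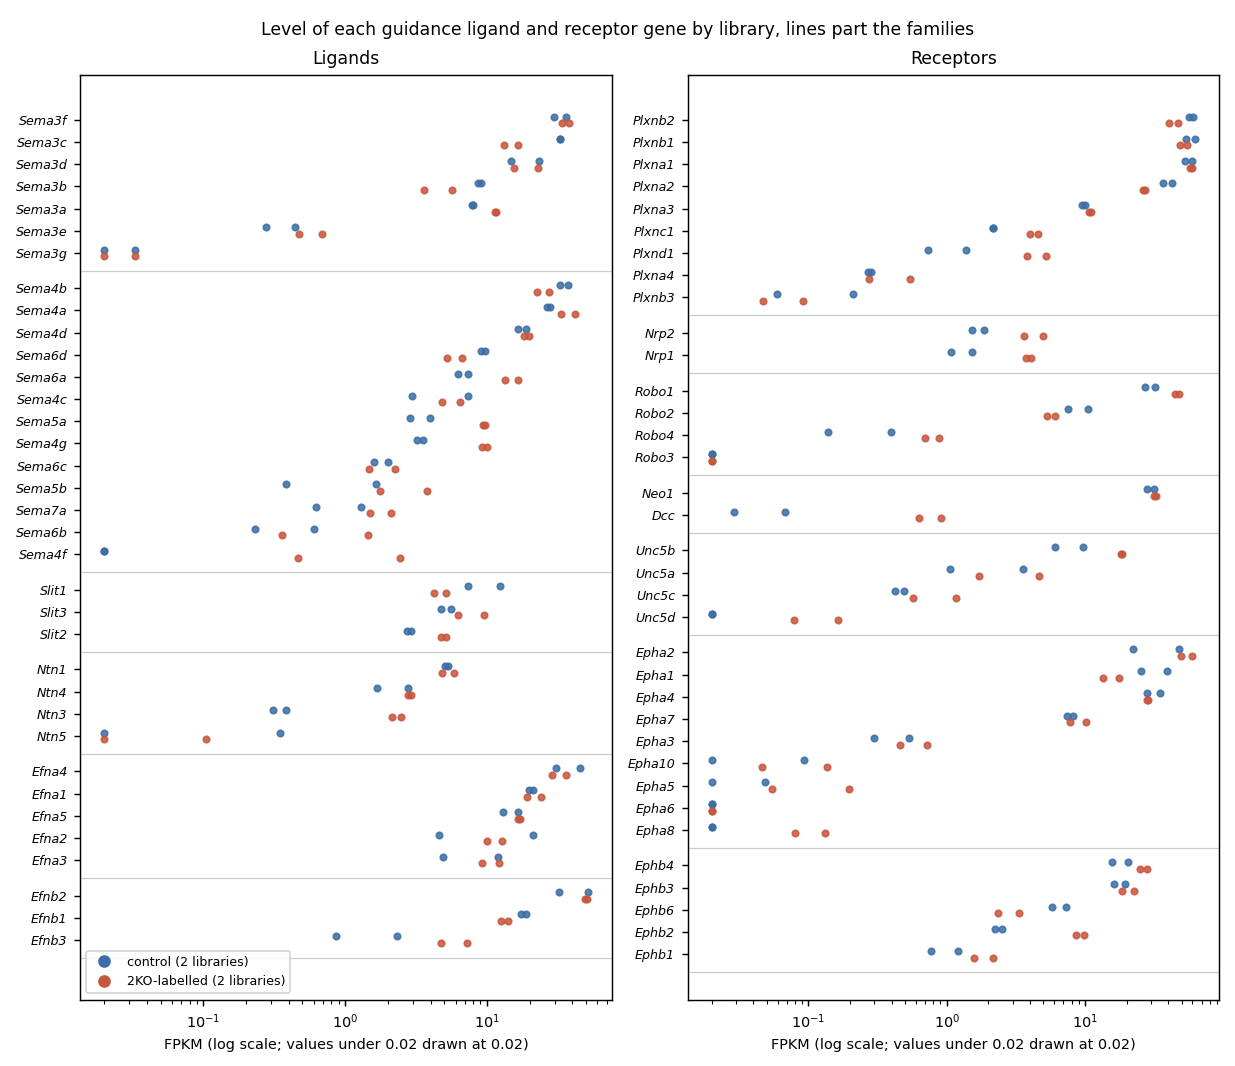
Level of each of the 70 family members in each library (FPKM, log axis, values under 0.02 drawn at 0.02), ligands left and receptors right, with families parted by lines and ordered by mean control level. Blue points are the 2 control and red points the 2 2KO-labelled libraries; plexins Plxnb2, Plxnb1 and Plxna1 are the most abundant, and members such as Dcc, Ntn3 and Plxnd1 sit low in control and higher in the 2KO-labelled libraries.

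In control epithelium the guidance repertoire was led by plexins. Levels between genes are given in FPKM, the authors' read density per transcript length. Plxnb2, at 59.1 ± 2.82 FPKM (SD, n = 2 libraries a group, here and in all means that follow), Plxnb1, at 58.5 ± 6.19, and Plxna1, at 56.4 ± 4.33, were the highest of all 70, and their spreads overlapped, so their order is not settled. They encode receptors for semaphorins of class 4 and, with a neuropilin, of class 3. Next came the ephrin ligand Efnb2 at 41.8 ± 13.3 FPKM, Plxna2 at 39.4 ± 4.14 and the ephrin Efna4 at 37.8 ± 10.4, again within each other's spread. Below them, Epha2, Sema4b, Sema3f, Sema3c, Epha1, Epha4, Neo1 and Robo1 followed between 29.6 and 34.9 FPKM. Of the 73 members, 51 reached a mean of 1 FPKM in control and 24 reached 10.

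Several receptors known from neurons and vessels were low per transcript length in control. Dcc stood at 0.0485 ± 0.0276 FPKM, Plxna4 at 0.276 ± 0.00809, Robo4 at 0.268 ± 0.184 and Epha3 at 0.414 ± 0.164. Epha6 had 0 counts in every library and Robo3 a single count in 1 of 4. The neuropilins were low as well, at 1.69 ± 0.223 FPKM for Nrp2 and 1.31 ± 0.320 for Nrp1, while the class 3 semaphorins that need them summed to 102 ± 10.7 FPKM. The epithelium thus carried far more transcript for these ligands than for their co-receptors, on the per-length scale.

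**Figure D2:**
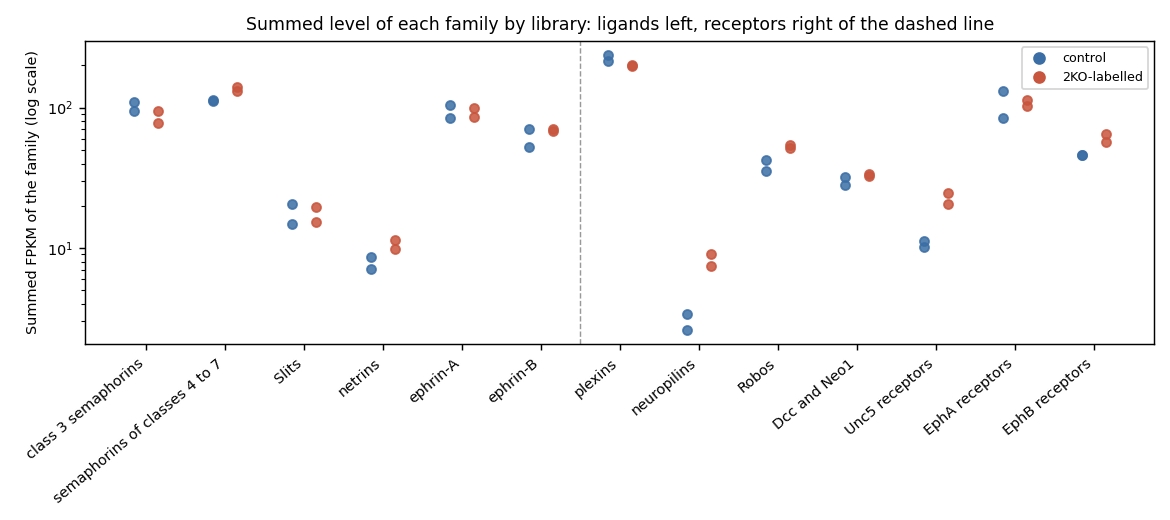
Summed FPKM of each family in each library (log axis), ligand families left and receptor families right of the dashed line, control in blue and 2KO-labelled in red. The neuropilin and Unc5 sums of both 2KO-labelled libraries lie above both controls, the plexin sums below, and the ephrin-A sums overlap.

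Ligands and receptors were present in like total amounts in both groups. The 35 ligand genes summed to 405 and 385 FPKM in the control libraries and to 409 and 416 in the 2KO-labelled ones. The 35 receptor genes summed to 501 and 424 FPKM in control and to 487 and 487 in the 2KO-labelled libraries. The totals moved little, whereas families within them did. The neuropilin sum was 3.38 and 2.62 FPKM in control and 9.02 and 7.39 in the 2KO-labelled libraries, a ratio of means of 2.74. The Unc5 receptor sum went from 11.1 and 10.1 to 24.7 and 20.6 FPKM, a ratio of 2.13, most of it Unc5b. Robos, EphB receptors and netrins followed at ratios of 1.35, 1.34 and 1.34, and semaphorins of classes 4 to 7 at 1.21. Below control lay the plexins at 0.886 and the class 3 semaphorins at 0.85, though the libraries of the latter overlapped. Ephrin-A, EphA and Slit sums were at 0.985, 1.01 and 0.986, with overlapping libraries. No test was run on the sums. Among tested genes, 6 of 33 ligands rose and 2 fell, and 7 of 32 receptors rose and 4 fell. Over all genes tested, 7.0% were called higher and 4.92% lower. Median log2 fold changes were 0.16 in ligands and 0.51 in receptors, which no test compared. The ligand Sema4f and the receptors Dcc, Robo4, Unc5d and Epha10 had enough reads only through the 2KO-labelled libraries. Their positive changes are no support for these rises or medians.

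**Figure D3:**
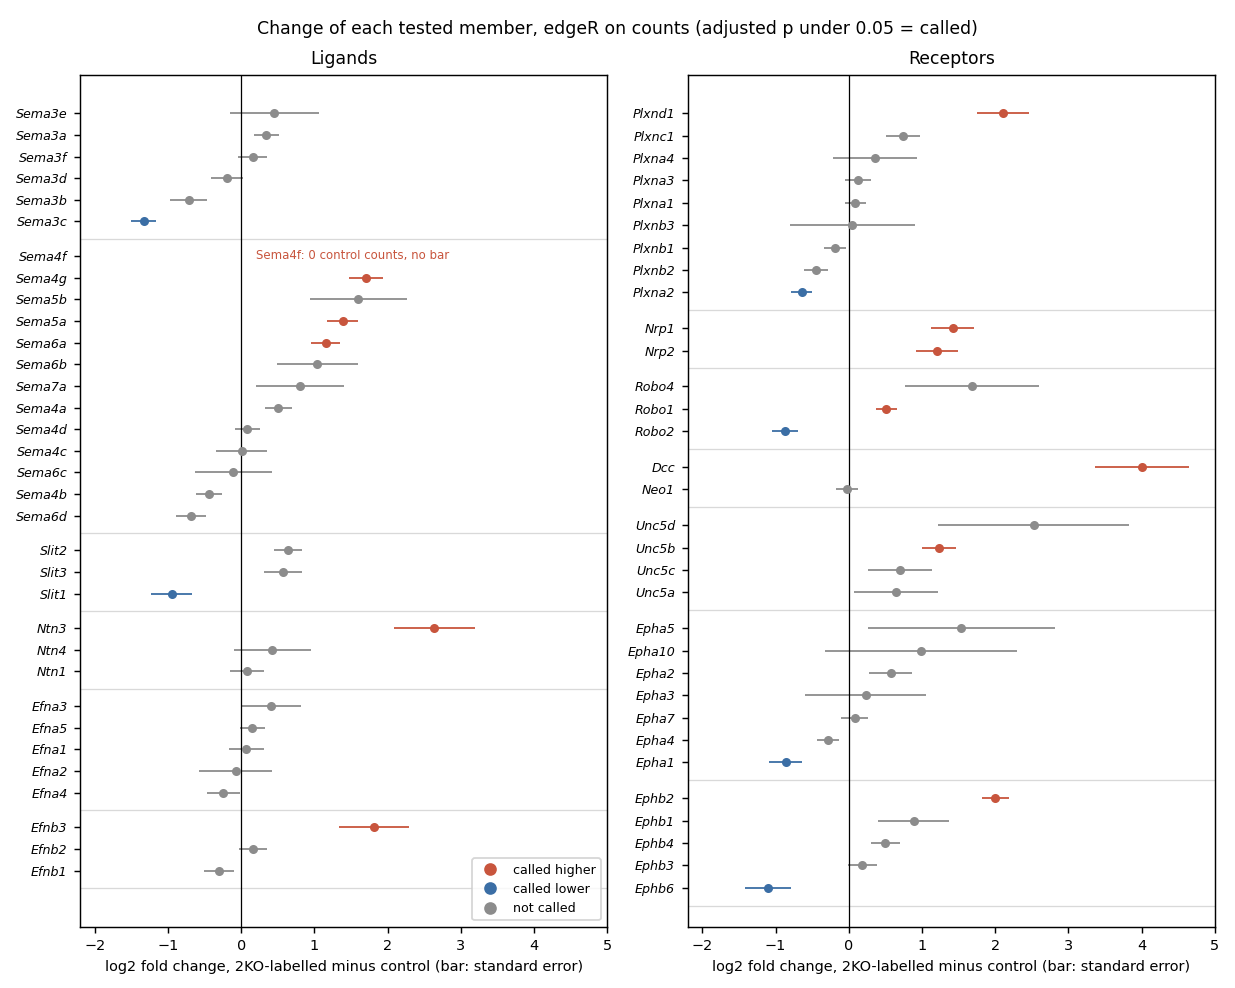
Log2 fold change of each tested family member (2KO-labelled minus control, counts, edgeR), with standard errors, by family and ordered within it. Red marks members called higher, blue called lower and grey not called; Sema4f has no point because it had 0 control counts, and the ephrin-A family has no coloured point.

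Of the class 3 semaphorins, which are secreted, none tested was called higher, and Sema3c was the only one called lower. Sema3c (chromosome 5, 17574281 to 17730268), which guides neural crest cells and developing vessels, stood at 197 and 216 CPM in the control libraries and at 73.3 and 90.6 in the 2KO-labelled ones. Both 2KO-labelled libraries lay far below both controls. It fell 2.52-fold (log2 fold change -1.33 with a standard error, SE, of 0.17, adjusted p = 0.000716). In FPKM it went from 32.9 ± 0.151 to 14.8 ± 2.28, so that from level with Sema3f, at 32.9 ± 4.25, it came to lie beside Sema3d, at 19.2 ± 5.07 in the 2KO-labelled libraries, within its spread. Sema3a, the repellent of sensory axons, stood at 66.6 and 70.8 CPM in control and 86.3 and 88.0 in the 2KO-labelled libraries (log2 fold change 0.34 with SE 0.167, adjusted p = 0.211). Its groups did not overlap, but the difference did not pass. Sema3b was at 27.2 and 24.7 against 14.3 and 17.3 CPM (adjusted p = 0.0934), and it was called lower with the GC content and length term. Sema3f and Sema3d overlapped between groups, and Sema3e, the ligand of Plxnd1, stayed between 2.40 and 5.72 CPM. Sema3g had 6 counts over the 4 libraries and was not tested.

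Semaphorins of classes 4 to 7, which are mostly anchored in the membrane, held 4 of the 13 increases and no decrease that passed, with Sema6d close to the threshold. All 13 members were tested, with a median log2 fold change of 0.81. Sema4f had enough reads to be tested only through the 2KO-labelled libraries, so its change is no support for the count of increases or the median. Sema4g (chromosome 19, 44989101 to 45003397) measured 13.2 and 13.8 CPM in control, against 41.0 and 47.0 in the 2KO-labelled libraries, a 3.25-fold rise (log2 fold change 1.70 with SE 0.231, adjusted p = 0.00105). Sema5a (chromosome 15, 32244810 to 32696341), a semaphorin with thrombospondin repeats that can attract or repel, was at 34.6 and 51.2 CPM in control, against 109.8 and 114 in the 2KO-labelled libraries, 2.61-fold higher (log2 fold change 1.38 with SE 0.209, adjusted p = 0.00199). Sema6a (chromosome 18, 47235598 to 47368870), a ligand of A-type plexins, went from 47.4 and 58.1 to 103 and 131 CPM, 2.22-fold higher (adjusted p = 0.00373). In each of the 3 genes the lower 2KO-labelled library exceeded the higher control by a wide gap.

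Sema4f (chromosome 6, 82911885 to 82939769) had no count in either control library. The 2KO-labelled libraries held 30 and 165 counts, or 1.70 and 8.16 CPM, so the replicates differed widely. Against a floor of 3 counts over the control group (0.0801 CPM) the level was at least 61.6-fold higher (adjusted p = 0.00568). The call was lost without 2KO-labelled replicate 2 (adjusted p = 0.0778). Counts are reads after amplification, so the floor covers counting error only.

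Other members of these classes moved less or were too variable. Sema4b, the most abundant in control at 34.9 ± 3.38 FPKM, was at 104 and 114 CPM in control and 70.3 and 90.8 in the 2KO-labelled libraries (adjusted p = 0.144). Sema4a, at 82.5 and 69.1 against 121 and 94.9 CPM, did not pass either (adjusted p = 0.102), though it did without control replicate 1 (0.0244). With Sema4a at 37.4 ± 5.74 FPKM and Sema4b at 24.8 ± 3.41 in the 2KO-labelled libraries, their order was the reverse of that in control. Sema6d was just outside the threshold, at 60.9 and 63.0 against 33.2 and 44.1 CPM (log2 fold change -0.68, adjusted p = 0.0527). It was called lower in 8 of the 13 other settings on counts, among them DESeq2 (adjusted p = 0.0315) and limma-voom (0.0414), and Sema4b was called lower in 1, the GC content and length term. Sema4d, the ligand of Plxnb1, was at 79.1 and 72.3 against 76.7 and 83.8 CPM, with overlapping groups (log2 fold change 0.08 with SE 0.17). Sema7a, a lipid-anchored ligand of Plxnc1, was at 4.36 and 1.94 against 6.52 and 4.55 CPM. Sema5b, at 1.23 and 5.16 against 6.12 and 13.1 CPM, did not pass either, though it did with no filter on low counts (adjusted p = 0.0211) and without control replicate 2 (0.00119) or 2KO-labelled replicate 1 (0.0175). Sema6b, Sema6c and Sema4c did not pass.

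Among plexins, the receptors of these ligands, 1 rose, 1 fell and 7 did not pass. Plxnd1 (chromosome 6, 115954811 to 115995005), the receptor of Sema3e best known from blood vessels, measured 4.31 and 7.33 CPM in control, against 20.2 and 29.8 in the 2KO-labelled libraries. It rose 4.31-fold (log2 fold change 2.11 with SE 0.353, adjusted p = 0.00373), or 1.29 on the log2 scale with a term for GC content and length (adjusted p = 0.0360). Plxna2 (chromosome 1, 194618218 to 194816869), a receptor for Sema6a and, with neuropilins, for class 3 semaphorins, fell from 505 and 472 to 313 and 312 CPM (log2 fold change -0.64 with SE 0.139, adjusted p = 0.0135). With the same term its log2 fold change was -1.11. The 3 most abundant plexins were called neither way: Plxna1 was at 445 and 387 against 425 and 459 CPM, Plxnb1 at 510 and 414 against 417 and 397, and Plxnb2 at 321 and 281 against 196 and 245. With that term, both Plxnb1 (log2 fold change -0.94, adjusted p = 0.00181) and Plxnb2 (-0.94, adjusted p = 0.00248) were called lower, and so was Plxna1, whose sign turned (-0.67, adjusted p = 0.00816). Plxnb2 was also called lower with no filter on low counts (adjusted p = 0.0454) and without control replicate 2 (0.0394). Plxnc1 was at 18.2 and 19.4 against 30.4 and 32.5 CPM, just outside the threshold (log2 fold change 0.74, adjusted p = 0.0625) and inside it with DESeq2 (0.0455) or no filter on low counts (0.0494).

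Both neuropilins rose, and no other family had every member called. Nrp1 (chromosome 8, 128358604 to 128503363), co-receptor for Sema3a and for vascular endothelial growth factor, measured 10.2 and 7.33 CPM in control, against 24.3 and 22.9 in the 2KO-labelled libraries (2.68-fold, log2 fold change 1.42 with SE 0.294, adjusted p = 0.0112). Nrp2 (chromosome 1, 62703285 to 62818695), the preferred co-receptor of Sema3f, stood at 11.7 and 9.38 against 27.0 and 21.5 CPM (2.30-fold, log2 fold change 1.20 with SE 0.284, adjusted p = 0.0209). The Nrp2 call was lost without 2KO-labelled replicate 1 (adjusted p = 0.131). An exon of Nrp1 overlaps the small RNA gene Mir1903 on the same strand. Beside Plxnd1, Nrp1 and Nrp2, which endothelium expresses too, none of 10 endothelial markers passed the test and 8 had a positive log2 fold change (median 1.20). Positive log2 fold changes made up 50.4% of all genes tested and 62.7% of those under a mean of 3 FPKM. Cldn5 had enough reads to be tested only through the 2KO-labelled libraries, so its sign is no support for the 8 or the median. The summed level of the 10 markers was 26.7 and 39.4 CPM in the control libraries and 49.5 and 70.4 in the 2KO-labelled ones. Cdh5 was at 8.52 and 9.79 against 12.5 and 29.7 CPM and Pecam1 at 6.81 and 2.40 against 10.1 and 13.8, and no marker was at 0 in all libraries. The part of endothelial RNA in these changes was not tested.

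**Figure D4:**
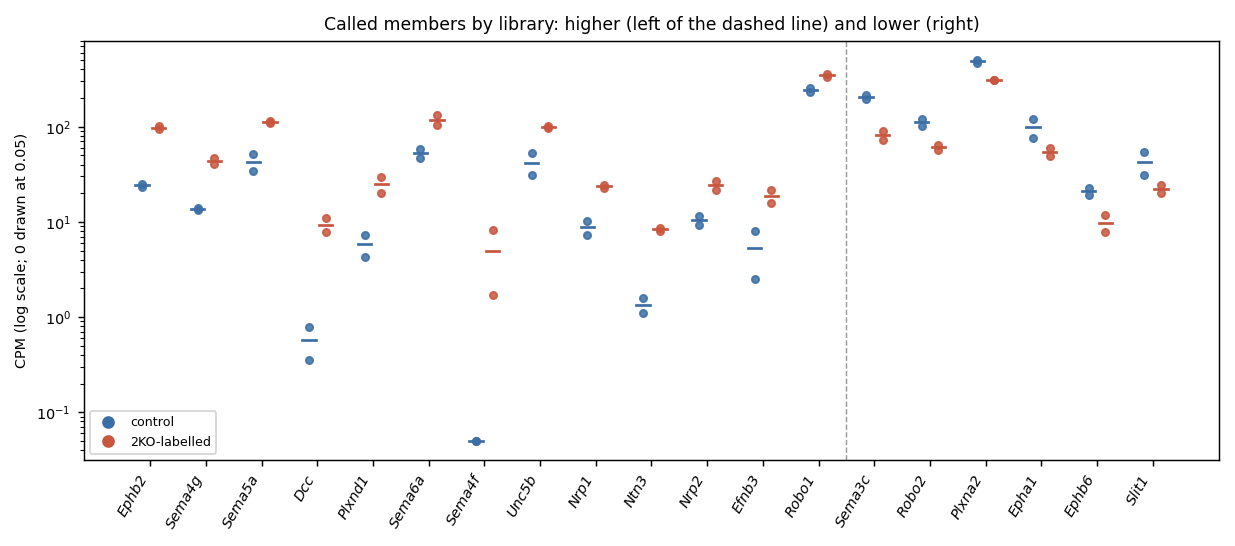
CPM of the 19 called members in each library (log axis, a count of 0 drawn at 0.05; short bars are group means), those called higher left and lower right of the dashed line, each by adjusted p. Control is blue and 2KO-labelled red. The groups do not overlap in any of the 19, which were picked by this same comparison. The replicates lie farthest apart in Sema4f and Efnb3.

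The Robo receptors of Slit ligands split, with Robo1 called higher and Robo2 lower. Robo1 (chromosome 16, 72308306 to 73046095) was at 253 and 231 CPM in control, against 329 and 362 in the 2KO-labelled libraries (log2 fold change 0.51 with SE 0.146, adjusted p = 0.0440). Robo2 (chromosome 16, 73891839 to 74411825) fell from 119.6 and 102 to 64.3 and 57.1 CPM (log2 fold change -0.87 with SE 0.176, adjusted p = 0.0100). The genes lie on opposite strands of one chromosome with 846 kb between them. Per length, Robo1 made up 76.1% of the Robo sum in control and 87.6% in the 2KO-labelled libraries. Robo4, a receptor of endothelium, was at 0.441 and 1.23 against 2.21 and 3.16 CPM and did not pass. The Robo1 call was the weaker: it was lost without control replicate 2 (adjusted p = 0.0850), without 2KO-labelled replicate 1 (0.0791) or 2 (0.243) and with the GC content and length term (log2 fold change 0.15, adjusted p = 0.547).

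Of the Slits, secreted repellents, Slit1 was called lower and neither of the others passed. Slit1 (chromosome 19, 41600257 to 41743665) was at 54.1 and 31.3 CPM in control, against 24.3 and 19.97 in the 2KO-labelled libraries, with control replicate 1 well above the rest (log2 fold change -0.95 with SE 0.279, adjusted p = 0.0495). This call sat at the threshold and was lost without control replicate 1 (adjusted p = 0.274, log2 fold change -0.48), without 2KO-labelled replicate 2 (adjusted p = 0.113) and with RLE (0.0517) or upper-quartile (0.0676) scaling or with Rn45s, Malat1 and Lars2 left out together (0.0588). Slit2 was at 34.8 and 35.9 against 58.3 and 52.1 CPM and Slit3 at 25.3 and 21.1 against 41.6 and 27.3. Both stood higher in each 2KO-labelled library than in either control, without passing (adjusted p = 0.0541 and 0.185). Slit2 was called higher in 5 of the 13 other settings on counts, with upper-quartile scaling (adjusted p = 0.0438), DESeq2 (0.0313), no filter on low counts (0.0345), a filter at 1 CPM (0.0469) and Rn45s, Malat1 and Lars2 left out (0.04998). In FPKM, Slit1 at 9.79 ± 3.51 was the most abundant Slit in control and Slit3 at 7.90 ± 2.27 in the 2KO-labelled libraries, in each case above both libraries of the other 2 Slits.

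In the netrin system the increases fell on receptors and on a minor ligand. Dcc (chromosome 18, 71253634 to 72351069), the receptor through which netrin attracts axons, had 16 and 6 counts in control and 137 and 220 in the 2KO-labelled libraries, or 0.784 and 0.352 against 7.76 and 10.9 CPM. It rose 16.1-fold (log2 fold change 4.005 with SE 0.64, adjusted p = 0.00277), and without control replicate 1 its log2 fold change was 4.72. Its level per length stayed low, at 0.772 ± 0.195 FPKM in the 2KO-labelled libraries, against 32.4 ± 0.749 for the related Neo1, which overlapped between groups at 214 and 248 against 219.7 and 236 CPM (log2 fold change -0.02 with SE 0.152). Unc5b (chromosome 10, 60762593 to 60831581), a netrin receptor for repulsion that endothelium also carries, rose from 52.3 and 31.4 to 96.4 and 101.1 CPM (2.35-fold, log2 fold change 1.24 with SE 0.233, adjusted p = 0.00721), or by 0.72 on the log2 scale with the GC content and length term (adjusted p = 0.0479). Unc5a, Unc5c and Unc5d had positive log2 fold changes of 0.64, 0.70 and 2.53, with standard errors of 0.578, 0.433 and 1.31, and did not pass; that of Unc5a was -0.05 with the GC content and length term.

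Of the netrins, Ntn3 (chromosome 17, 24203848 to 24209531) rose from 1.57 and 1.11 to 8.73 and 8.11 CPM (6.23-fold, log2 fold change 2.64 with SE 0.554, adjusted p = 0.0121). Its exons overlap those of Tbc1d24 on the same strand and of BC028777 on the other, so its reads are uncertain to that extent. Ntn1, the main netrin here and the ligand of Dcc, Neo1 and Unc5b, overlapped between groups at 22.3 and 23.2 against 25.6 and 22.6 CPM (log2 fold change 0.08 with SE 0.238), and with the GC content and length term its log2 fold change was -0.39 (adjusted p = 0.342). Ntn4 overlapped between groups. Ntn5 had 14 counts over the 4 libraries and was not tested. Beside Dcc, a gene of neurons, 1 of 9 tested neuronal markers rose (Elavl3, at 0.686 and 0.0586 against 6.74 and 3.46 CPM) and 1 fell (Tubb3, at 15.6 and 8.39 against 2.72 and 1.83). Log2 fold changes were positive in 7 of the 9, with a median of 1.42. Of all genes tested 50.4% were positive, and of those under a mean of 3 FPKM 62.7%. Elavl3, Elavl4, Snap25 and Nefl had enough reads to be tested only through the 2KO-labelled libraries. Stmn2, with a negative log2 fold change, had enough only through control. The signs of these genes are no support for the counts or the median. The sum of the 10 markers was 31.5 and 35.3 CPM in control and 27.8 and 37.8 in the 2KO-labelled libraries. The part of neuronal RNA in these changes was not tested.

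Among EphB receptors, Ephb2 rose, Ephb6 fell and the other 3 did not pass. Ephb2 (chromosome 4, 136647539 to 136835988), a receptor for B-type ephrins that takes part in cell sorting and axon crossing, measured 23.4 and 25.3 CPM in control, against 100.6 and 94.0 in the 2KO-labelled libraries. It rose in both libraries alike (log2 fold change 2.00 with SE 0.185, adjusted p = 0.000134), the smallest adjusted p of the members, and by 1.30 on the log2 scale with the GC content and length term (adjusted p = 0.00142). Ephb6 (chromosome 6, 41605482 to 41620509), a member without kinase activity, fell from 19.2 and 22.9 to 7.76 and 11.8 CPM (log2 fold change -1.10 with SE 0.31, adjusted p = 0.0420). That call was lost with upper-quartile scaling (adjusted p = 0.0512), without control replicate 2 (0.0717) and without 2KO-labelled replicate 1 (0.249). Ephb4 and Ephb3, the most abundant EphB genes in control at 18.2 ± 3.56 and 17.8 ± 2.38 FPKM, did not pass (log2 fold changes 0.50 and 0.18), though Ephb4 was called higher without control replicate 1 (adjusted p = 0.0110). Ephb2 went from 2.37 ± 0.185 to 9.22 ± 0.819 FPKM and so passed above Ephb6, which went from 6.54 ± 1.06 to 2.84 ± 0.699.

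EphA receptors were led by 3 genes in control, Epha2, Epha1 and Epha4, at 34.9 ± 17.95, 32.5 ± 9.95 and 31.5 ± 4.52 FPKM, whose spreads overlap. Epha1 (chromosome 6, 42358487 to 42373268), an epithelial Eph receptor, fell from 121 and 76.0 to 49.1 and 59.2 CPM (log2 fold change -0.86 with SE 0.228, adjusted p = 0.0336). The call was lost without control replicate 1 (adjusted p = 0.147, log2 fold change -0.47) and without 2KO-labelled replicate 1 (adjusted p = 0.0715), and exons of Epha1 overlap Zyx on the other strand. Epha2 differed between the control libraries, at 167 and 73.9 CPM, and stood at 190.4 and 169 in the 2KO-labelled ones (adjusted p = 0.236), and leaving out control replicate 1 made it a call (adjusted p = 6.2e-06, log2 fold change 1.30), as did dropping the filter on low counts (0.0139). Epha4 was at 240.02 and 208 against 180.1 and 187 CPM (log2 fold change -0.29, adjusted p = 0.253). In the 2KO-labelled libraries the order was Epha2 at 54.6 ± 7.50 FPKM, Epha4 at 28.2 ± 0.361 and Epha1 at 15.5 ± 2.87, with no overlap of spreads. Epha7, Epha3, Epha5 and Epha10 did not pass. Epha8 had 1 count in control and 24 in the 2KO-labelled libraries, or 23.7 times as many per library size (95% interval from counting alone 3.87 to 976), and was below the level needed for the test. Epha8 and Ephb2 lie 93.4 kb apart on chromosome 4, and Epha1 and Ephb6 738 kb apart on chromosome 6.

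Of the 8 ephrins, ligands of these receptors, 1 rose and none fell. None of the 5 ephrin-A genes passed, and their log2 fold changes ran from -0.24 for Efna4 to 0.41 for Efna3, with standard errors of 0.231 and 0.411. Efna1, the ligand of Epha1 and Epha2, was at 27.4 and 22.8 against 28.8 and 23.9 CPM (log2 fold change 0.07 with SE 0.242). Efna2 was at 8.28 and 36.2 CPM in the control libraries, the widest replicate gap of the family, and its groups overlapped. Without control replicate 2 it was called higher (adjusted p = 0.00660, log2 fold change 1.35). Efna1, Efna3 and Efna4 lie side by side on chromosome 3, between 89271733 and 89338028, and none of the 3 was called. Of the ephrin-B genes, Efnb3 (chromosome 11, 69554092 to 69560205), the least abundant, rose from 7.98 and 2.52 to 21.5 and 15.7 CPM (3.51-fold, log2 fold change 1.81 with SE 0.481, adjusted p = 0.0337). Its log2 fold change was 2.90 without control replicate 1 and 1.22 without control replicate 2, called in both cases (adjusted p = 6.92e-06 and 0.0187). Efnb2, at 232 and 157 against 214 and 220.0 CPM, and Efnb1, at 50.4 and 54.7 against 37.3 and 47.5, did not pass.

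Ranked by mean level over the 4 libraries, the changes differed between scarce and abundant members. Of 22 tested family members under 3 FPKM, 6 rose and none fell, beside 7.05% called higher and 0.971% called lower of all genes in that class. A scarce gene can pass the read filter through a single group. Sema4f, Dcc, Robo4, Unc5d and Epha10 passed it through the 2KO-labelled libraries. Their positive changes are therefore no support for the rises or the median of this class. Of 21 members at 3 to 15 FPKM, 6 rose and 3 fell, beside 7.32% and 4.25%. Of 22 members at 15 FPKM or more, 1 rose (Robo1) and 3 fell (Sema3c, Plxna2 and Epha1), beside 6.497% and 10.9%. Median log2 fold changes over the 3 classes were 1.01, 0.34 and 0.02, beside 0.35, -0.06 and -0.12 for all genes. The median thus fell from scarce to abundant genes both among the members and over all genes; no test compared the falls.

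Ligands and receptors of known pairs can be set side by side by their calls; whether the members of a pair differ in their change was not tested. Among the fixed pairs, ligand and receptor were both called lower for Slit1 with Robo2, and no pair had both called higher. Calls went opposite ways for Sema3c, which fell, with Nrp1 and Nrp2, which rose, and for Slit1 with Robo1. The receptor was called and the ligand was not for Sema3a and Sema3f (log2 fold changes 0.34 and 0.16) with Nrp1 and Nrp2 (1.42 and 1.20). The same held for Sema3e with Plxnd1 (0.45 and 2.11), Ntn1 with Dcc and Unc5b, and Efnb1 and Efnb2 with Ephb2. It also held for Slit2 and Slit3 with Robo1, called higher, and Robo2, called lower, and for Efna1 with Epha1 (0.07 and -0.86). Sema4d with Plxnb1 and Plxnb2, Sema7a with Plxnc1, Ntn1 with Neo1, and Efna1 with Epha2 held no called gene. Nor did Efnb1 and Efnb2 with Ephb3 and Ephb4. Pairs outside the fixed list were picked with the calls known. They were Efnb3 with Ephb2 and Ntn3 with Dcc and Unc5b, all called higher, and Sema6a with Plxna2. Sema6a was called higher and its receptor Plxna2 lower.

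Other genes of the guidance pathway were read from a list of 69, of which 65 were tested: 15 rose, 6 fell and 44 did not pass. Over all genes tested, 7.0% were called higher and 4.92% lower. The share called was higher among other ligands, receptors and co-receptors than among intracellular effectors. Of the former, 9 of 27 rose and 1 fell, with a median log2 fold change of 0.30. Cntn2, which rose, and the uncalled Draxin passed the read filter only through the 2KO-labelled libraries. Their positive changes are no support for these counts or the median. Ntng2 and Ntng1, netrin relatives anchored in the membrane that the symbol rule leaves out, rose from 1.81 and 3.17 to 20.5 and 25.8 CPM (adjusted p = 0.000501, log2 fold change 3.22) and from 8.87 and 10.4 to 29.2 and 43.7 CPM (adjusted p = 0.00171, log2 fold change 1.92). Flrt1 and Flrt3, membrane proteins that bind Unc5 receptors and Robo1, rose with log2 fold changes of 1.76 and 1.21 (adjusted p = 0.000856 and 0.00108). The chemokine Cxcl12 rose from 3.13 and 4.16 to 21.8 and 21.9 CPM and its receptor Cxcr4 from 5.83 and 4.22 to 11.3 and 15.3. Nell2, a ligand of Robo3, and the axonal adhesion molecules Nrcam and Cntn2 were also called higher, with log2 fold changes of 2.64, 2.87 and 3.74. Plxdc2, a receptor-like membrane protein, was the gene of this group that fell (log2 fold change -0.55, adjusted p = 0.0477).

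Of 38 tested intracellular effectors 6 rose, 5 fell and 27 did not pass, beside 7.0% called higher and 4.92% called lower of all genes. Dpysl5 and Dpysl3, of the collapsin response mediator family that carries semaphorin signals, rose from 38.5 and 47.1 to 121 and 127 CPM (log2 fold change 1.54 with SE 0.18, adjusted p = 0.000472) and from 50.9 and 52.3 to 85.2 and 86.7 (0.74, adjusted p = 0.0197). Trio, a guanine nucleotide exchange factor, rose from 209 and 186 to 334 and 325 CPM (adjusted p = 0.00940), and Chn2, a Rac GTPase-activating protein, from 7.10 and 3.81 to 20.1 and 18.3. Dpysl4 and Farp1 were called higher as well. Dpysl4 and the uncalled Crmp1 passed the read filter only through the 2KO-labelled libraries, so their positive changes are no support for the count of rises. Rhoa, the GTPase through which many repellents act on the cytoskeleton, fell from 357 and 352 to 191 and 218 CPM (log2 fold change -0.79 with SE 0.147, adjusted p = 0.00672). Mical2, an oxidase that takes actin filaments apart, Ngef, an exchange factor downstream of EphA receptors, and the actin-binding Ablim1 and Ablim3 fell with log2 fold changes of -0.87, -1.04, -0.68 and -1.03.

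Markers of other cell types were read beside these changes. Mesenchymal markers summed to 311 and 377 CPM in control and 385 and 351 in the 2KO-labelled libraries, with Postn lower and none higher of 9 tested. Of 6 Schwann cell and 2 melanocyte markers tested none was called, and of 4 immune markers tested Cd68 rose. Skeletal muscle markers summed to 329 CPM in control replicate 2 and to 49.9 to 58.2 CPM in the other 3 libraries, most of it Ttn, and none of 7 tested was called. The part of these cells in the changes above was not tested. Without control replicate 2, Ephb6 and Robo1 lost their calls, the other 17 called members kept theirs, and Efna2 and Sema5b were called higher and Plxnb2 lower.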

How the data were processed

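Per the labels' protocols, EpCAM-positive cells were sorted from dissociated embryonic tongues, their RNA was amplified as cDNA, and the cDNA libraries gave single-end reads. The deposited files hold whole-number read counts per gene and, in a table made with cuffnorm per its file name, FPKM values computed by the authors. Build mm10, HTSeq 0.6.1, Cufflinks 2.2.1, TopHat2 2.0.13 and DESeq2 1.6.3 are named in the submitters' processing notes. The sources used here do not state the annotation or strand option, so reads of overlapping genes are uncertain. Exons of 18 of the 73 members overlap another gene of GENCODE M21, among them the called Nrp1, Ntn3 and Epha1.

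Counts were fitted over all genes with edgeR 4.0.16 in R 4.3.3 (TMM, filterByExpr, two-sided quasi-likelihood test of genotype alone, Benjamini-Hochberg adjustment, threshold 0.05). The biological coefficient of variation was 0.313. Standard errors are the log2 fold change over the square root of F. Levels are compared between genes in FPKM and between libraries in CPM on TMM-scaled sizes. The steps were tested on simulated counts. Named are every called member, the most abundant and the most changed of each family, fixed ligand and receptor pairs, up to 8 called pathway genes in each direction and the 2 most abundant cell type markers of a list, of which the text gives examples. Called cell type markers are named as well. Members, lists and alternatives were chosen with earlier results of these data known. Alternatives were RLE and upper-quartile scaling, DESeq2 1.42.0, limma-voom (limma 3.58.1), other filters, a replicate block, the FPKM values with pseudocounts of 1 and 0.1, a fit that dropped Malat1, Lars2 and Rn45s, and each library left out. An offset for GC content and transcript length, by loess in each library, was chosen after seeing the data.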

Additional observations from a re-analysis of the deposited data

How the results depend on the processing

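On counts, 13 settings were tried besides the reported one, and 13 of the 19 called members were called in all of them: Dcc, Efnb3, Ephb2, Nrp1, Ntn3, Plxna2, Plxnd1, Robo2, Sema3c, Sema4g, Sema5a, Sema6a and Unc5b. The other 6, Epha1, Ephb6, Nrp2, Robo1, Sema4f and Slit1, lost their calls in 1 to 5 settings, as given above. With each library left out in turn, 11 to 16 members were higher and 4 to 6 lower, and of the other pathway genes 11 to 16 were higher and 3 to 7 lower. With the GC content and length offset, chosen after seeing the data, 12 members and 10 other pathway genes were lower. On the deposited FPKM values with a minimum of 0.5 in 2 libraries, 7 members were higher and 1 lower with a pseudocount of 1, and 4 higher and 1 lower with 0.1. Of the other pathway genes 8 were higher with either pseudocount and 1 or 0 lower. With no filter on FPKM none of these genes passed limma's test (0 in each direction), with 28 members at an unadjusted p under 0.05. All 19 called members had the same sign and no overlap between groups in FPKM. The FPKM values come from the same libraries, and the 19 were picked by this difference on counts, so this is no separate support. Over all genes, 71.8% of calls were higher with a pseudocount of 1 and 72.95% with 0.1, against 58.7% on counts. With the replicate block, 14 members were higher and 7 lower, the 19 calls were kept, Sema5b and Sema6d were gained (adjusted p = 0.0422 and 0.0396), and same-numbered libraries did not deviate together (correlation -0.0232), so the numbers were not taken as pairs. No scaling moved the median of all genes by more than 0.0498. The GC content and length offset turned the sign of Plxna1, which became a call, and of the uncalled Ephb3, Ntn1, Plxna3, Plxna4, Plxnb3, Sema3f, Sema4c, Sema4d and Unc5a. Depth limits the scarcest members: Epha10 and Unc5d, with 3 to 12 and 1 to 28 counts a library, had standard errors of 1.31 on the log2 scale.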
